A study of Rattus norvegicus with 8 samples.

Results

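The genes that join glucuronic acid or sulfate to small molecules, and the carboxylesterases that cut ester bonds, were compared between the livers of rats fed a high-phosphorus (HP) diet and rats fed a control diet. Genes were taken by symbol from the annotation of the array, as the Ugt1 to Ugt3, Sult1 to Sult6 and Ces1 to Ces5 families. Each gene was read at the probe set with the highest mean among those whose values spanned at least 0.05 on the log2 scale over the 8 arrays. Of 27 such genes named on the array, 13 had a probe set of this kind: 3 of 8 UDP-glucuronosyltransferase (UGT) genes, 7 of 14 sulfotransferase (SULT) genes and 3 of 5 carboxylesterase (CES) genes. They stand among 2808 genes measured in the same way, of 14218 genes with a single symbol. Livers came from male Wistar rats aged 8 weeks, 4 fed the HP diet with 1.2% phosphorus and 4 fed the control diet with 0.3% phosphorus. Both diets were based on AIN-93G and were eaten for 24 days, after an acclimatization during which every rat ate the control diet. Each array held the RNA of 1 rat, so that 4 arrays per diet set how precise a value can be.

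UGT enzymes sit in the membrane of the endoplasmic reticulum and use UDP-glucuronic acid to make bilirubin, steroids, bile acids and drugs soluble in water. Cytosolic SULT enzymes do the same with sulfate, taken from the donor PAPS, and act on phenols, estrogens, hydroxysteroids and thyroid hormones. Carboxylesterases of the hepatocyte hydrolyse ester and amide drugs, and some also hydrolyse triacylglycerol and other lipid esters. The liver is a main site of all of these reactions.

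Conjugation genes did not move as a block. By rank products, the test of the study at a false discovery rate (FDR) under 0.05, 3 of the 13 genes were called higher in HP rats, namely Ugt2b1, Sult1c2 and Sult2a6, and 2 were called lower, namely Sult1a1 and Sult1e1. The other 8 genes, among them all 3 carboxylesterases, were not called. Over the whole array 1.14% of probe sets were called higher and 1.62% lower, and among the 4155 probe sets spanning at least 0.05 these shares were 8.5% and 12.1%. The members' shares were 23.1% higher and 15.4% lower, where each gene weighs heavily in so short a list, and the difference from those shares was not tested. The median difference, HP minus control, was 0.09 (log2) over the 13 genes, with 8 above 0 and 5 below, against -0.01 over the 2808 genes, of which 45.3% were above 0.

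A linear model with a shared estimate of spread (limma, two-sided, Benjamini-Hochberg adjustment over 4155 probe sets) called 0 of the 13 genes at an adjusted p under 0.05, and 0% of all probe sets tested. At an unadjusted p under 0.05 it gave 0 members higher and 2 lower, Sult1a1 and Sult1e1, where 5.37% of probe sets were higher and 7.29% lower. The same 2 genes were the ones whose HP rats were all below every control rat, as in 4.07% of probe sets. No member had all HP rats above all control rats, as 3.1% of probe sets did, and the diets overlapped in 11 genes. The rank product calls depended on what was ranked and on single rats. When only the probe sets spanning at least 0.05 were ranked, 24 probe sets were called higher and 18 lower, with 0 members among them. Without the dimmest 25% of probe sets, Ugt2b1 and Sult1e1 were the 2 members called. Members called higher numbered 6 without control rat 1, 0 without HP rat 2, and 1, Ugt2b1, without HP rat 1, HP rat 3, HP rat 4 or control rat 3. Higher calls over all probe sets numbered 586 without control rat 1, against 353 with all rats. Without HP rats 1 to 4 they numbered 127, 85, 101 and 111, and without control rat 3 they numbered 302. Members called lower numbered 1, Sult1e1, without control rat 1, and 0 without control rat 2, control rat 3 or control rat 4. Lower calls over all probe sets fell from 505 to 253 without control rat 1. They numbered 86, 71 and 129 without control rats 2, 3 and 4. By limma, Sult1a1 and Sult1e1 kept an unadjusted p under 0.05 in every run that left out a rat. In those runs 189 to 475 of the 4155 probe sets were lower at that p.

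**Figure D1:**
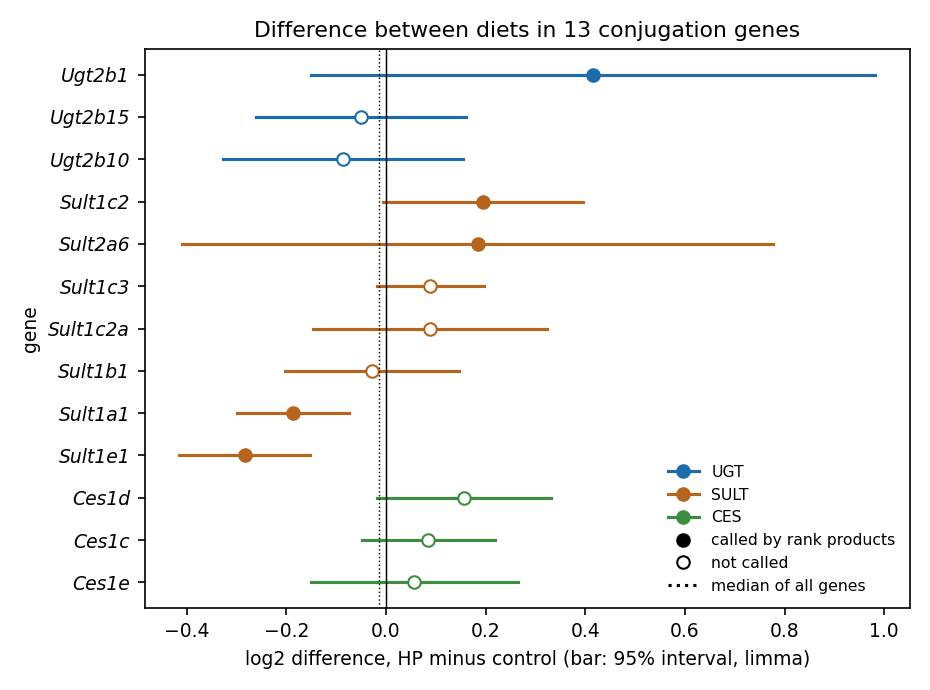
Difference between diets (log2, HP minus control) in each of the 13 measured genes, with the 95% interval of limma as a bar, n = 4 rats per diet, UGT genes at the top, SULT genes in the middle and CES genes at the bottom. Filled points are genes called by rank products. Only the intervals of Sult1a1 (-0.30 to -0.07) and Sult1e1 (-0.41 to -0.15) lie wholly on one side of 0.

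Sulfotransferases held both genes that were lower in every HP rat. Sult1e1, the estrogen sulfotransferase, had log2 values of 12.73, 12.73, 12.84 and 12.93 in HP rats 1 to 4, against 12.99, 13.11, 13.19 and 13.06 in control rats 1 to 4. The highest HP rat lay below the lowest control rat. Means were 12.81 ± 0.10 in HP rats and 13.09 ± 0.08 in control rats (SD, n = 4 each), a difference of -0.28 with a standard error of 0.06 and a fold of 0.822. Rank products gave an FDR of 0.0134, while limma gave an adjusted p of 0.202, and over the 17 alternative settings that adjusted p ran between 0.055 and 0.718. Leaving out each rat in turn gave differences between -0.32 and -0.25.

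Sult1a1, the phenol sulfotransferase that conjugates simple phenols and drugs such as paracetamol, had 11.94, 11.96, 11.98 and 11.92 in HP rats 1 to 4, against 12.11, 12.21, 12.21 and 12.01 in control rats 1 to 4 (log2). HP rats lay close together, with an SD of 0.03 around a mean of 11.95, while control rats had an SD of 0.09 around a mean of 12.14, and control rat 4 lay nearest to the HP rats. The difference was -0.19 with a standard error of 0.05, a fold of 0.878, with an FDR of 0.0324 by rank products and an adjusted p of 0.245 by limma, which ran between 0.0766 and 0.533 over the alternative settings. In whole liver RNA, fewer cells of a type and less RNA per cell cannot be told apart.

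The Sult1c genes lie near each other on chromosome 9, and all 3 had a positive difference. Sult1c2 had 9.19, 9.24, 9.18 and 9.46 in HP rats 1 to 4, against 9.14, 9.20, 8.89 and 9.05 in control rats 1 to 4 (log2). HP rat 4 stood above the rest and control rat 3 below, while the other 6 rats lay close together. The difference was 0.19 with a 95% interval of -0.01 to 0.40, a fold of 1.14, with an FDR of 0.0464 by rank products and an adjusted p of 0.399 by limma. Sult1c3, which RefSeq places after Sult1c2 with 1 coding gene between them, differed by 0.09 (95% interval -0.02 to 0.20), and Sult1c2a by 0.09 (95% interval -0.15 to 0.32), and neither was called. HP rat 4 was the highest of the 8 rats in each of these genes, and without it the differences were 0.13 in Sult1c2, 0.06 in Sult1c3 and 0.00 in Sult1c2a. Without control rat 1, the highest control rat in Sult1c3, that gene differed by 0.13 and was called higher by rank products. That run called 586 probe sets higher, against 353 with all rats. Probes of one family member can pick up RNA of a near relative, and the part of this was not tested.

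Sult2a6, one of the hydroxysteroid sulfotransferases, was the sulfotransferase that varied most between rats. Its log2 values were 8.31, 9.05, 8.52 and 8.19 in HP rats 1 to 4, against 8.26, 8.07, 7.95 and 9.05 in control rats 1 to 4. HP rat 2 and control rat 4 stood well above the other rats of their diets at the same level, and the diets overlapped over most of their range. The difference was 0.18 with a standard error of 0.31 and a 95% interval of -0.41 to 0.78, a fold of 1.14, with an FDR of 0.0433 by rank products and an adjusted p of 0.78 by limma. It was 0.01 without HP rat 2 and 0.42 without control rat 4. Sult1b1, which acts on thyroid hormones and phenols, differed by -0.03 (95% interval -0.20 to 0.15) and was not called.

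**Figure D2:**
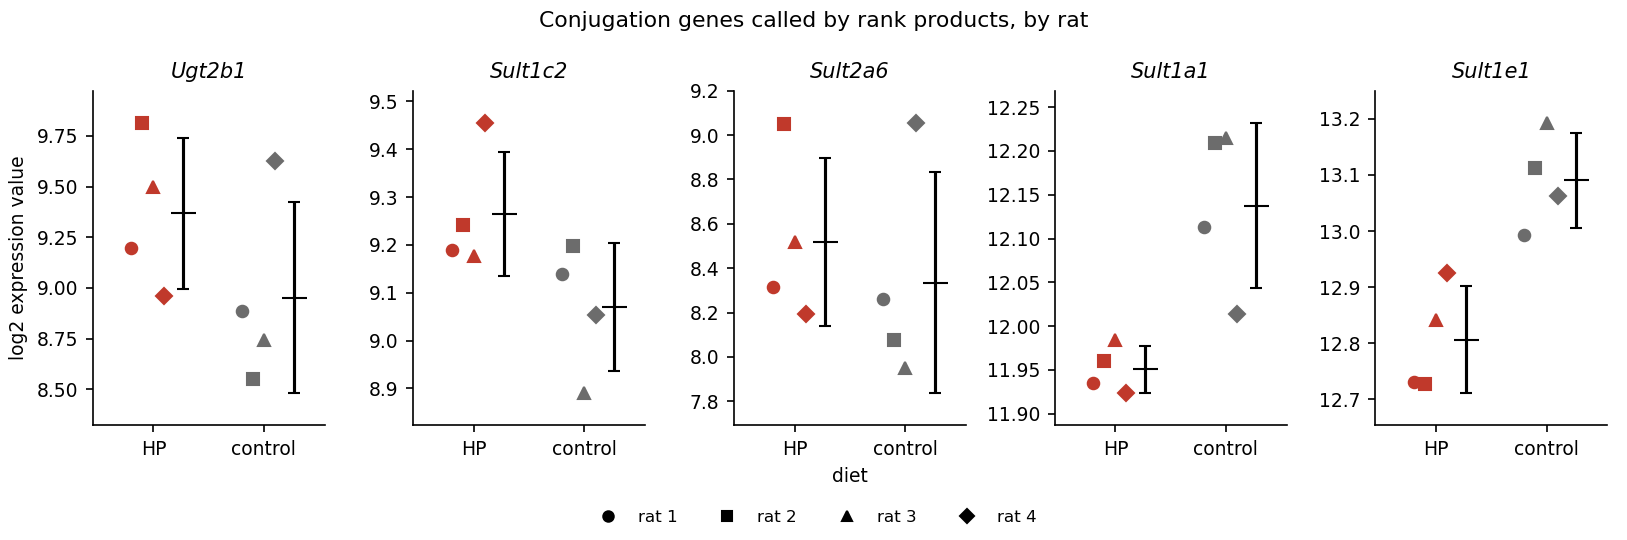
Log2 expression values of the 5 genes called by rank products, 1 panel per gene with its own vertical scale, HP rats left and control rats right. Symbols mark the rat number within a diet, which is not taken to link rats of different diets, and bars give the mean with 1 SD (n = 4). The diets separate in Sult1a1 and Sult1e1 and overlap in Ugt2b1, Sult1c2 and Sult2a6.

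Glucuronosyltransferases were represented by Ugt2b genes of chromosome 14. Ugt2b1, which acts on steroids and drugs, had 9.20, 9.81, 9.50 and 8.96 in HP rats 1 to 4, against 8.89, 8.55, 8.74 and 9.63 in control rats 1 to 4 (log2). Control rat 4 lay above all HP rats but HP rat 2, and HP rat 4 lay among the control rats. The means were 9.37 ± 0.37 in HP rats and 8.95 ± 0.47 in control rats (SD, n = 4 each), a difference of 0.42 with a standard error of 0.30 and a 95% interval of -0.15 to 0.98, a fold of 1.33. This was the largest difference of the 13 genes, with an FDR of 0.00396 by rank products and an adjusted p of 0.494 by limma. It was 0.27 without HP rat 2 and 0.64 without control rat 4, and the gene was called in 7 of the 8 runs that left out a rat.

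Ugt2b10, which lies next to Ugt2b1 in RefSeq, had 10.39, 10.42, 10.40 and 10.22 in HP rats 1 to 4, against 10.35, 10.28, 10.37 and 10.77 in control rats 1 to 4 (log2). Control rat 4 stood above the rest and HP rat 4 below the other HP rats, and the difference was -0.09 with a 95% interval of -0.33 to 0.16. Ugt2b15 had 11.02, 10.72, 10.70 and 10.69 in HP rats 1 to 4, against 10.70, 10.77, 10.86 and 11.00 in control rats 1 to 4, a difference of -0.05 with a 95% interval of -0.26 to 0.16. HP rat 1 and control rat 4 were its highest rats, and neither gene was called. Without control rat 4 the differences were 0.02 in Ugt2b10 and 0.01 in Ugt2b15. Ugt1a genes could not be read singly, because 2 probe sets list 8 Ugt1a symbols each. These probe sets differed by 0.06 and -0.05 and were not called.

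The carboxylesterase genes Ces1c, Ces1d and Ces1e, which neighbour each other on chromosome 19 in RefSeq, had positive differences, none of them called. Ces1d, known in mouse as a triacylglycerol hydrolase, had 12.41, 12.31, 12.26 and 12.10 in HP rats 1 to 4, against 12.28, 12.02, 12.02 and 12.12 in control rats 1 to 4 (log2). The difference was 0.16 with a 95% interval of -0.02 to 0.33, an FDR of 0.0816 by rank products and an adjusted p of 0.426 by limma. HP rat 4 and control rat 1 crossed into the range of the other diet.

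Ces1c, a carboxylesterase secreted into the plasma of rodents, had 12.53, 12.40, 12.39 and 12.36 in HP rats 1 to 4, against 12.48, 12.26, 12.27 and 12.32 in control rats 1 to 4 (log2). Control rat 1 lay among the HP rats and the other control rats below all of them, and the difference was 0.08 with a 95% interval of -0.05 to 0.22. Ces1e had 10.04, 10.02, 10.12 and 10.02 in HP rats 1 to 4, against 10.23, 10.07, 9.83 and 9.83 in control rats 1 to 4, a difference of 0.06 with a 95% interval of -0.15 to 0.26. Control rat 1 was the highest control rat in all 3 genes. Without it the differences were 0.13 in Ces1c and 0.14 in Ces1e, and rank products called Ces1c and Ces1d higher. That run called 586 probe sets higher, against 353 with all rats. A probe set that lists both Ces1f and Cesl1 differed by -0.03 and was not called.

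**Figure D3:**
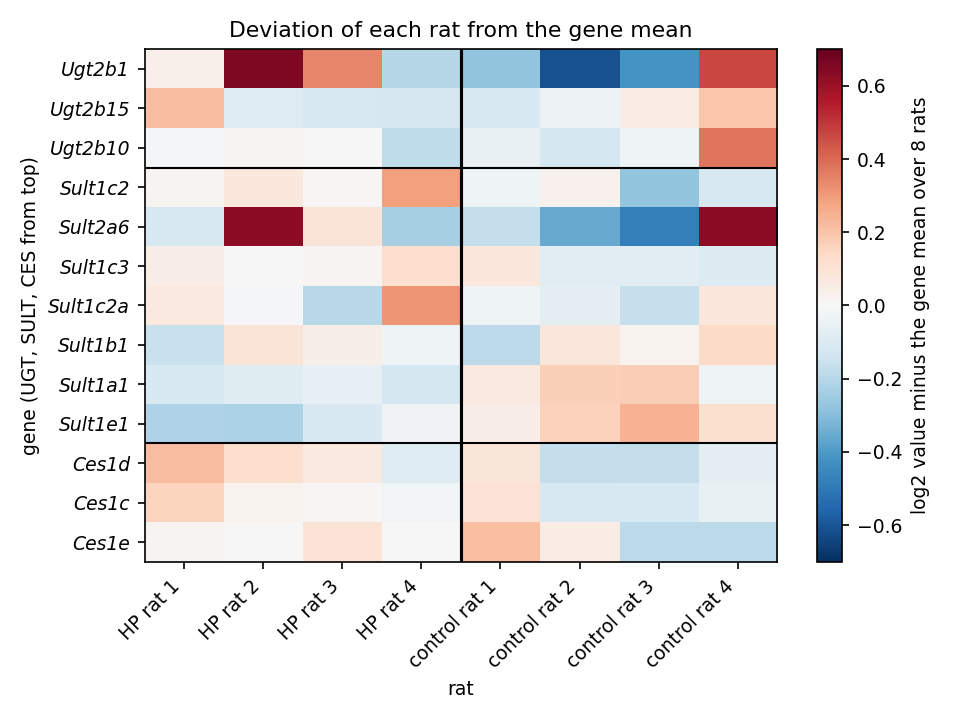
Deviation of each rat from the mean of the gene over 8 rats (log2, colour), with 13 genes as rows and rats as columns, HP rats left of the black line and control rats right. Ugt2b1 and Sult2a6 share high values in HP rat 2 and control rat 4, and Sult1a1 and Sult1e1 are below their means in all 4 HP rats.

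The spread among rats was unequal across the genes. The span over 8 rats ran from 0.21 to 1.26 among the 13 genes, with a median of 0.4, and Ugt2b1 and Sult2a6 had the widest. The mean deviation of the UGT genes was 0.08, 0.19, 0.08 and -0.17 in HP rats 1 to 4, against -0.14, -0.26, -0.13 and 0.35 in control rats 1 to 4, so that control rat 4 was the highest of all. Ugt2b1 weighed most in these means. In HP rat 2 it deviated by 0.65, against 0.02 in Ugt2b10 and -0.09 in Ugt2b15, while control rat 4 was above the mean of every UGT gene. SULT means were -0.07, 0.07, -0.03 and 0.04 in HP rats 1 to 4. In control rats 1 to 4 the SULT means were -0.03, -0.01, -0.08 and 0.10. For CES genes the means were 0.13, 0.05, 0.06 and -0.04 in HP rats 1 to 4, against 0.13, -0.08, -0.15 and -0.10 in control rats 1 to 4. Family medians of the difference were -0.05 for UGT, 0.09 for SULT and 0.09 for CES genes. The UGT median was 0.02 without control rat 4, -0.10 without HP rat 1 and -0.09 without control rat 1, and between -0.07 and -0.02 when any other rat was left out. The SULT median was 0.00 without HP rat 4, 0.01 without HP rat 2 and 0.05 without control rat 3, and the CES median was 0.14 without control rat 1.

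Promoter sequence is shown for the called genes that the RefSeq table holds and for Ces1c and Ces1d, whose upstream bases were the most alike among the pairs of one family. The table, of build GRCr8, held 12 of the 13 genes, all but Sult1e1. Each line gives the bases before the annotated start, 5′ to 3′ on the strand of the gene. Capitals mark matches on either strand to 3 short motifs, GTTAAT (a half-site of HNF1), AGGTCA (a half-site of nuclear receptors) and TTGCNNAA (a C/EBP site). None of these matches overlap in the sequences shown.
Ugt2b1 (chr14:21378632-21378881, plus strand): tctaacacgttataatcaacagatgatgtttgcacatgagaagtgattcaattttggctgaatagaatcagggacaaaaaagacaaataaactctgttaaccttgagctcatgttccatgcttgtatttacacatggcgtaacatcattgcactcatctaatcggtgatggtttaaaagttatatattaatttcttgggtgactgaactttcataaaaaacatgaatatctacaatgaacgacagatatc
Sult1a1 (chr1:190706113-190706362, minus strand): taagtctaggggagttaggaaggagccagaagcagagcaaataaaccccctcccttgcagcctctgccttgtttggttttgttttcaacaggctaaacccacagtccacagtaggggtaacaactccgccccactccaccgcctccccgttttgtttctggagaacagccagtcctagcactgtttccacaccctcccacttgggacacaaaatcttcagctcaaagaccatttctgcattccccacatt
Sult1c2 (chr9:7436731-7436980, plus strand): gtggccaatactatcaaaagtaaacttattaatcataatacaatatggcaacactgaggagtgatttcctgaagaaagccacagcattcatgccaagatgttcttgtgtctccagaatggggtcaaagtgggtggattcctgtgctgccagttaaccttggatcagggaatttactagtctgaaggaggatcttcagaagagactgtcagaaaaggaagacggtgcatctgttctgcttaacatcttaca
Sult2a6 (chr1:84097809-84098058, minus strand): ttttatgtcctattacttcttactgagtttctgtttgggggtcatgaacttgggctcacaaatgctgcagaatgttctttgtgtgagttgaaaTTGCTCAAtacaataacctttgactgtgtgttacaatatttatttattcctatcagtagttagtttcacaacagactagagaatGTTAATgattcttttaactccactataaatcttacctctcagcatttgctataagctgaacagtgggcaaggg
Ces1c (chr19:30099197-30099446, plus strand): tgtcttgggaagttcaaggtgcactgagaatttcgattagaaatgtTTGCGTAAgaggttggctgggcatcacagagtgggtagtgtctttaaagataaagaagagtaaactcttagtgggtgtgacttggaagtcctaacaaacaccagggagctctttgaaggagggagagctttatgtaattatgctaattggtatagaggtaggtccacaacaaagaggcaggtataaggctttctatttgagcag
Ces1d (chr19:30046244-30046493, plus strand): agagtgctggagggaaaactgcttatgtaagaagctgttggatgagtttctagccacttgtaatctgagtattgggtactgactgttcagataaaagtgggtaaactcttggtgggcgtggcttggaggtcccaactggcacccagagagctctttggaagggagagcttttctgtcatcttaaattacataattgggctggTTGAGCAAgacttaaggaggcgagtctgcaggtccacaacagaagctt
Ces1c and Ces1d were identical in 58.1% of alignment columns, gaps counted as columns, and Ugt2b1 and Ugt2b15 in 54.4%. The other pairs within a family were identical in 42.9% to 49.5%. How much unrelated promoters would share in such an alignment was not tested. TTGCNNAA was found before 5 of the 12 genes, Ces1c, Ces1d, Sult1c2a, Sult2a6 and Ugt2b15, and before 9.2% of 27457 promoters of the same length. GTTAAT was found before Sult2a6 and in 6.46% of promoters, and AGGTCA before Ugt2b15 and in 13.7%. TATAAA was also searched on either strand and is not marked. It was found before Sult1c2a, Sult2a6 and Ugt2b10 and in 13.1% of promoters. Ugt2b1, Sult1a1 and Sult1c2 held none of the 3 marked motifs in this window. A match is a description of letters and no evidence of binding.

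The other 14 genes had no probe set that could show a difference. Their spans were at most 0.00129, against at least 0.21 in the 13 measured genes, so no gene stood near the limit of 0.05. They were Ugt2a1, Ugt2b, Ugt2b7, Ugt2b34l1, Ugt2b35, Sult1d1, Sult2a1, Sult2a2, Sult2b1, Sult4a1, Sult5a1, Sult6b2, Ces2c and Ces5a. Ugt2b35 was near-constant at 12.52, and the means of the other 13 ranged from 5.63 to 7.80. Near-constant values were found in bright and in dim probe sets, and what made them so was not tested. Such a value does not show whether the gene differed between the diets.

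Genes that supply sulfate and the donor PAPS were read next, as 5 measured genes of 12 on the array. Rank products called 0 of them higher and 3 lower in HP rats, with a median difference of -0.18, where 8.5% of probe sets spanning at least 0.05 were called higher and 12.1% lower. Each gene weighs heavily among 5, and the list was drawn up with earlier results of these data known. The difference from those shares was not tested. Papss2, which makes PAPS, had 11.37, 11.02, 11.14 and 11.38 in HP rats 1 to 4, against 11.37, 11.81, 11.76 and 11.13 in control rats 1 to 4 (log2), a difference of -0.29 with a 95% interval of -0.64 to 0.06, an FDR of 0.027 by rank products and an adjusted p of 0.453 by limma. Control rats 2 and 3 stood above all other rats, and control rats 1 and 4 lay within the range of the HP rats. Without control rat 2 the difference was -0.19. A second probe set of Papss2 that spanned at least 0.05 differed by -0.35 and was also called lower.

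Slc26a1, a sulfate transporter of the hepatocyte membrane, had 9.57, 9.63, 9.70 and 9.86 in HP rats 1 to 4, against 9.48, 10.05, 10.27 and 10.08 in control rats 1 to 4 (log2). Control rat 1 was the lowest of all 8 rats and the other control rats lay above every HP rat. The difference was -0.28 with a 95% interval of -0.63 to 0.07, an FDR of 0.0249 by rank products and an adjusted p of 0.462 by limma. It was -0.44 without control rat 1 and -0.18 without control rat 3.

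Bpnt1, which breaks down the nucleotide left when PAPS has given up its sulfate, had 8.92, 8.95, 8.99 and 9.02 in HP rats 1 to 4, against 9.07, 9.09, 9.16 and 9.26 in control rats 1 to 4 (log2). The highest HP rat lay below the lowest control rat, with a difference of -0.18, a standard error of 0.05, an FDR of 0.0365 and an adjusted p of 0.332 by limma. Cdo1 and Csad, enzymes of cysteine breakdown to sulfate and taurine, differed by 0.03 and 0.17 and were not called. Of the 8 runs that left out a rat, Papss2 was called in 4, all but those without HP rat 2 or control rats 1, 2 or 3. Slc26a1 was called in 5, all but those without control rats 2, 3 or 4, and Bpnt1 in 4, those that kept every control rat. Over all probe sets, runs without control rats 2, 3 and 4 called 86, 71 and 129 lower, against 505 with all rats. None of these 3 genes was called when only probe sets spanning at least 0.05 were ranked, where 18 were called lower.

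**Figure D4:**
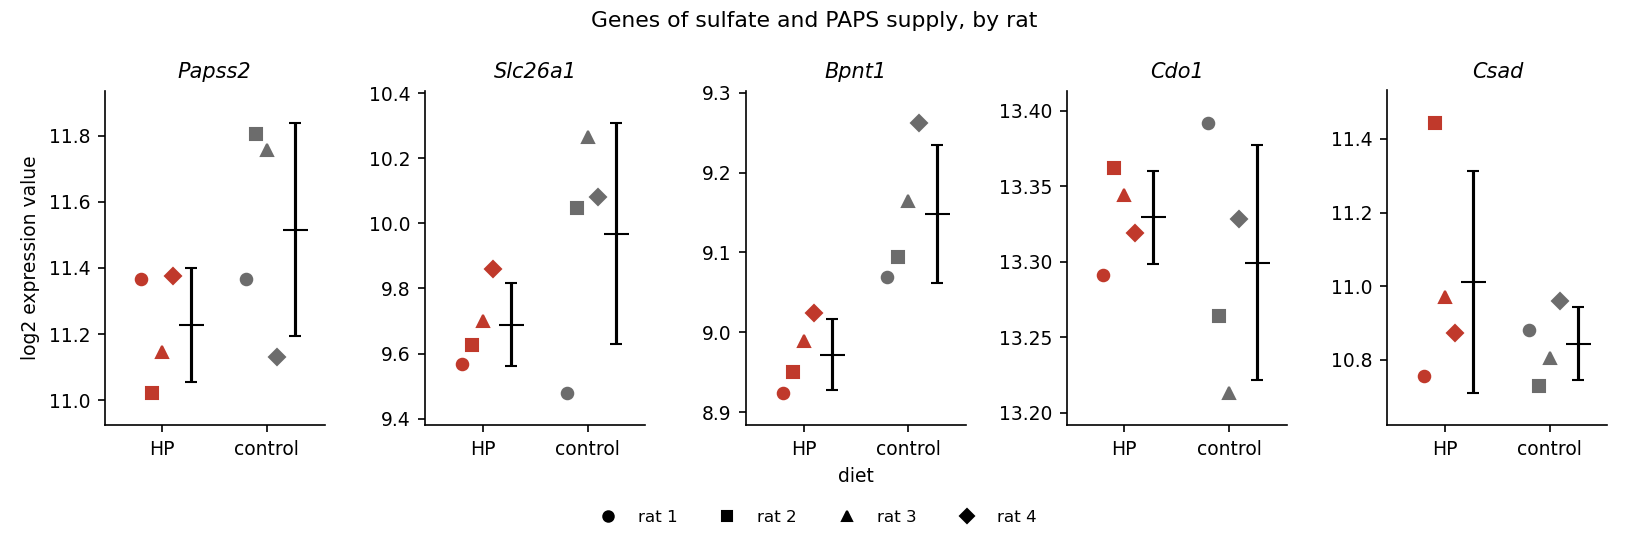
Log2 expression values of the 5 measured genes of sulfate and PAPS supply, 1 panel per gene with its own vertical scale, HP rats left and control rats right, with the mean and 1 SD (n = 4) as bars. Bpnt1 separates the diets, with HP rats at 8.92 to 9.02 and control rats at 9.07 to 9.26.

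A list of genes drawn up for the supply of UDP-glucuronic acid had 4 measured of 4 on the array, with 0 called. The largest differences were 0.10 in Slc35d2, a nucleotide sugar carrier, and -0.09 in Pgm1, a phosphoglucomutase. Whether Slc35d2 serves glucuronidation was not tested. Of a list of glucuronidase and sulfatase genes, 2 of 9 on the array were measured, Sulf2 (0.12), which acts on heparan sulfate outside the cell, and Arsb (0.03), which acts on glycosaminoglycans in the lysosome. Neither enzyme is known for removing the groups that SULT or UGT enzymes add to small molecules. Other esterases had 7 measured of 13, with Nceh1 (0.17) and Mgll (-0.13) as the largest differences, and 0 were called in either list. A second probe set of Mgll differed by -0.22 and was called lower, with an FDR of 0.0499. Of the transcription factors known to act on conjugation genes, 11 of 20 were measured, with 1 called higher and 0 lower, a share close to that of all probe sets spanning at least 0.05 (8.5% higher). That gene was Nr1h4, the bile acid receptor FXR, with 9.47, 9.59, 9.46 and 9.90 in HP rats 1 to 4, against 9.34, 9.36, 9.57 and 9.39 in control rats 1 to 4 (log2). HP rat 4 stood apart, and the difference was 0.19 with a standard error of 0.11, an FDR of 0.0409 and an adjusted p of 0.46 by limma. It was 0.09 without HP rat 4, and of the 8 runs that left out a rat the gene was called in 1, without control rat 3. Hnf4a, a liver transcription factor named here after its values were seen, had probe sets that disagreed. The one that stands for the gene in the list differed by -0.10 and was not called. The second one had 7.66, 7.66, 7.68 and 7.86 in HP rats 1 to 4, against 7.69, 7.23, 7.09 and 7.02 in control rats 1 to 4 (log2), and was called higher, with a difference of 0.45, an FDR of 0.0052 and an adjusted p of 0.32 by limma. Control rat 1 lay among the HP rats, and the direction of Hnf4a is uncertain.

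Markers of the tissue and of other cells were read as ranges of their mean level, and their calls stand beside shares of 8.5% higher and 12.1% lower among all probe sets spanning at least 0.05. At their brightest probe sets, hepatocyte genes were among the brightest of the array, with Alb at 14.53 and Ttr at 13.96 in both diets without measurable spread, and 0 of 4 measured were called. Further probe sets of Apob, at 7.06, and of Fgb, at 6.18 and 6.15 in both diets, were much less bright. Kupffer cell markers had 1 of 7 called lower, with list means of 8.84 to 9.09 in HP rats and 8.88 to 9.27 in control rats. All 7 had a negative difference, from -0.33 to -0.04. Sinusoidal endothelial markers had 2 of 4 called higher, with list means of 9.58 to 9.75 in HP rats and 9.46 to 9.60 in control rats. All 4 had a positive difference, from 0.08 to 0.26. Of stellate cell markers 0 of 6 were called, and of blood markers 1 of 1 measured, Hbb, was called higher, with 11.38 to 11.61 in HP rats and 11.04 to 11.64 in control rats. Cholangiocyte and lymphocyte markers had 0 measured of 5 and of 9 on the array. The part of other cell types in the values above was not tested.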

How the data were processed

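Liver RNA of 4 HP rats and 4 control rats was hybridised to Affymetrix rat arrays, 1 per rat. The deposited values are log2 values per probe set, which the authors made with FARMS in R 2.13.1 (submitters' processing notes), a summary by factor analysis of what a set's probes have in common. How arrays were normalized to each other is not stated in those sources, and no step was added. The 8 array medians were 6.65. Of 31099 probe sets, 57 are controls, and 86.1% spanned under 0.01 (log2). No detection value was used.

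Rank products used all 31099 probe sets, 16 differences between an HP and a control array, 1000 permutations within arrays and an FDR under 0.05 in each direction (numpy 2.4.6, Python 3.11.15). limma 3.58.1 (R 4.3.3, trend and robust empirical Bayes) used the 4155 probe sets spanning at least 0.05, controls left out. Only probe sets with 1 symbol were named. RefSeq tables (GRCr8) gave gene order and promoters, of which the 250 bases before the start were searched, and 26 of 27 genes matched by gene ID. Promoter pairs were aligned with Biopython 1.88. Members and lists were chosen with earlier results of these data known. Values by rat are given for members that were called or did not overlap, for the 3 with the largest difference in each family and for the brightest of each family, and pathway genes are named if called or, with none called, as the 2 with the largest difference. Markers were used as counts and ranges only. Alternatives were centring or quantile normalization of the arrays, a span minimum of 0.2 or none, dropping the dimmest 25% of probe sets, ranking only those that span 0.05, array weights, plain empirical Bayes, a replicate block, averaging a gene's probe sets, and dropping each rat.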

Additional observations from a re-analysis of the deposited data

Results flagged for a closer look

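Among the 4 rats of a diet, 1 rat stood far from the other 3 in 3 of 46 sets of values examined (23 named genes in each diet). Chance gives about 1 in 20. Ugt2b15 was at 11.02 in HP rat 1, against 10.69 to 10.72 in the other HP rats. Ugt2b10 was at 10.22 in HP rat 4, against 10.39 to 10.42 in the other HP rats. Sult1c3 was at 12.67 in control rat 1, against 12.50 to 12.51 in the other control rats. With all 8 rats none of these genes was called by either test. Without control rat 1, Sult1c3 was called higher by rank products and had an unadjusted p under 0.05 by limma, with a difference of 0.13, against 0.09 with all rats. Over all probe sets, rank products called 586 higher in that run, against 353 with all rats. By limma 375 were higher at that p, against 223 with all rats.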

How the results depend on the processing

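Rank products called 3 members higher and 2 lower. Ranking only probe sets spanning at least 0.05 gave 0 and 0, with 24 higher and 18 lower over all probe sets, against 353 and 505. Leaving out the dimmest 25% of probe sets gave 1 (Ugt2b1) and 1 (Sult1e1), with 235 and 305 over all. Without single rats, members called ranged from 0 to 6 higher and from 0 to 2 lower. Over all probe sets these runs called 85 to 586 higher and 71 to 541 lower. Centring each array and quantile normalization called the same 5 genes. By limma at an unadjusted p under 0.05, 0 members were higher and 2 lower. Members higher were 3 with array weights (Ces1d, Sult1c3, Ugt2b1), 3 with centring (Ces1d, Sult1c2, Sult1c3), 1 with quantile normalization and 1 with the replicate block, and from 0 to 3 without single rats. With no span filter 1 member was lower (Sult1a1). Over all probe sets, higher and lower numbered 223 and 303, against 297 and 223 with centring, 385 and 490 with array weights and 1315 and 1112 with no span filter. Without single rats they ranged from 143 to 375 higher and from 189 to 475 lower. The cause of these changes was not tested. The smallest adjusted p of any member over the 17 alternatives ranged from 0.055 to 0.533.

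The labels do not say whether the replicate numbers pair the rats, and no pairing was used in the main tests. Same-numbered rats of the 2 diets had correlations of 0.48, 0.03, -0.12 and -0.20 between their deviations across probe sets. HP rat 1 correlated best with control rat 1, but HP rat 4 correlated best with control rat 3 (0.51). Such correlations cannot show whether rats were matched by design. With the replicate block, 192 probe sets were higher and 312 lower.

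Without single rats, the SULT median ranged from 0.0002 to 0.0986. Differences changed sign in Ugt2b10 (-0.141 to 0.025), Ugt2b15 (-0.131 to 0.0069), Sult1b1 (-0.0939 to 0.0194) and Nceh1 (-0.0234 to 0.313), none of them called. The other 294 values of single genes under an alternative kept their direction, some of them close to no difference, such as Sult1c2a at 0.0002 without HP rat 4. No probe set of the array passed the adjusted limma threshold in any setting, so that threshold says nothing about how stable these genes were.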
